A study of Homo sapiens with 4 samples.

Results

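The MCM genes MCM2 to MCM10 were taken by gene symbol, with every probe set that the array annotation assigns to them alone. They are 9 of 18132 genes and 32 of the 44994 probe sets with a single gene symbol, and 1 probe set (MCM5) to 5 probe sets (MCM4, MCM8) report each gene. The cells were MDS-L, a human cell line from myelodysplastic syndrome (MDS) that was grown with IL-3, on which it depends, and SKM-1, a human leukemia line that arose from MDS. Each line received either 1 μM decitabine (DAC), a cytidine analog that traps DNA methyltransferases and lowers DNA methylation, as 24-h pulses over 5 days, or the solvent DMSO. Each of the 4 conditions was measured on 1 Affymetrix PrimeView array, so no condition had a replicate, and all values are log2 expression as deposited. No p-value exists within a cell line, and a probe set was called lower or higher when it differed at least 2-fold between arrays.

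MCM2 to MCM7 form the ring that is loaded onto DNA in G1 and then, together with CDC45 and the GINS complex, unwinds the double helix at replication forks. MCM8 and MCM9 form a separate helicase complex that works in homologous recombination, and MCM10 is not a ring subunit but a DNA-binding factor that helps to activate the ring. Transcription of many of these genes rises at the G1/S transition under E2F factors, so their mRNA is high in cycling cells. The arrays measured RNA of whole cultures, in which fewer cells in S phase and less MCM RNA per cell cannot be told apart.

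The promoter stretches of the MCM genes that hold an E2F word are shown as a description. The sequences are from RefSeq (GRCh38.p14), read 5′ to 3′ on the strand of the gene, and capitals mark the E2F words. Of the 9 genes, 7 were matched in the promoter table, with 9 promoters in all (MCM7 has 3). Member promoters on the chromosome that carries MCM4 were left out, so MCM4 was not searched, and MCM5 was not matched. The shares over all genes and promoters given below include that chromosome. Each promoter holds 300 bases, 250 before the start site and 50 after it, and promoter windows are cut here to 60 bases before the start or 30 bases around a match near it.
MCM6 distal, chr2:135876562-135876621, minus strand: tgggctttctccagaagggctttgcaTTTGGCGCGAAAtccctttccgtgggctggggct
MCM6 proximal, chr2:135876500-135876559, minus strand: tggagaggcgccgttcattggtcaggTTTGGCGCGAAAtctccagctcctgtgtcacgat
MCM3 distal, chr6:52284883-52284942, minus strand: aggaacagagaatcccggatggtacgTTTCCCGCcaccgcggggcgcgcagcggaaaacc
MCM3 start, chr6:52284728-52284757, minus strand: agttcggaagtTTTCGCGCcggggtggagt
MCM7 distal, chr7:100101551-100101610, minus strand: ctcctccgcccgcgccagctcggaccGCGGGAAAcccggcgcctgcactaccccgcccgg
MCM7 proximal, chr7:100101398-100101457, minus strand: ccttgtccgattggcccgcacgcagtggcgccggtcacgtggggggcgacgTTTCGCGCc
MCM2 start, chr3:127598402-127598431, plus strand: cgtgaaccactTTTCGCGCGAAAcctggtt
MCM8 start, chr20:5950667-5950696, plus strand: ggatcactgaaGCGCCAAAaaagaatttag
The E2F words searched on both strands were TTTCCCGC, TTTGGCGC, TTTCGCGC and TTTGCCGC, and they were found in MCM2, MCM3, MCM6, MCM7 and MCM8, that is in 5 of 7 genes and 5 of 9 promoters. Of all 27305 genes in the table, 3.99% had a promoter with at least 1 of these words, as had 3.31% of all 35116 promoters. MCM6 held 2 such sites, each of 2 words that overlap on opposite strands (TTTGGCGC on the strand of the gene and TTTCGCGC on the other), starting 152 and 90 bases before the start site. MCM3 had a TTTCCCGC 174 bases before the start and a TTTCGCGC across it. In MCM7, a TTTCCCGC lay on the opposite strand 187 bases upstream and a TTTCGCGC began 9 bases upstream, while its other promoters held no such word. In MCM2 and MCM8 the word lay after the start, and the promoters of MCM9 and MCM10 held none. The CCAAT box, CCAAT on either strand, occurred in 6 of 7 genes (all but MCM2), against 39.7% of all genes and 34.6% of all promoters. The cell cycle homology words TTTGAA and TTTAAA occurred in 0 of 7 genes, against 27.9% of all genes and 24.0% of all promoters. These matches are letters in fixed windows, binding was not measured, and their part in the changes with DAC was not tested.

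The arrays were alike in their distributions, with sorted values at most 0.18 (log2) apart. Background levels, the 90th percentile of 359 olfactory receptor probe sets taken as silent, ran from 4.84 to 5.09 over the arrays. Of the 32 MCM probe sets, 30 lay above background on all 4. On each single array 60.7% to 63.0% of all 49395 probe sets did, and the share of them on all 4 was not computed. Values under background were raised to it, and a decrease to a raised value is written "at least". Of 7 myeloid blast markers, 7 were above background on both MDS-L arrays and 6 on both SKM-1 arrays, where KIT, a stem cell factor receptor, lay at 3.25 and 3.59. The blast marker MPO was close to background in MDS-L, at 5.04 and 5.48. Of the markers of other cells, 2 of 3 B cell, 2 or 3 of 4 T cell, 1 or 2 of 2 erythroid, 1 of 3 stromal and 1 or 2 of 3 epithelial genes were above background, and MS4A1, CD3G, COL1A2, LUM and CDH1 were under it on all 4 arrays. Others were well above it. The B cell factor PAX5 read 8.93 and 9.27 in MDS-L and 8.94 and 9.42 in SKM-1, and the epithelial KRT18 8.09 and 8.54 in MDS-L. CD3D, a T cell receptor chain, went from 3.98 to 8.91 in MDS-L with DAC, and its part in the MCM values was not tested.

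In MDS-L cells, MCM genes other than MCM9 were lower after DAC on every probe set. All 32 had a log2 fold change below 0 (31 after quantile normalization or with centred changes, with 1 MCM9 probe set just above 0), against 52.4% of all measured probe sets, and 26 were at least 2-fold lower, against 3.81%. The median of the MCM probe sets was -1.49 (log2), or 2.80-fold lower, where that of all 29223 measured probe sets was -0.03, and 0 of 32 were at least 2-fold higher, against 2.75%. By 1 probe set per gene, the one with the highest mean, 7 of 9 genes were at least 2-fold lower, against 3.18% of all genes. The exceptions were MCM5, at 1.93-fold, and MCM9. In SKM-1 cells, 26 of 31 measured probe sets were within 1.5-fold of their DMSO levels and 5 were at least 1.5-fold lower. The shares of all probe sets within or past 1.5-fold were not computed, so it is not known whether these SKM-1 counts are typical of the array. Of the 31, 23 lay below 0 (20 after quantile normalization), against 51.4%, 1 was at least 2-fold lower, against 2.78%, and 0 were at least 2-fold higher, against 2.1%, with a median of -0.21 against -0.02 for all. By 1 probe set per gene, 0 of 9 genes were at least 2-fold lower in SKM-1, against 1.43%, and 0 were at least 2-fold higher, against 2.71%. Probe sets of a gene share its transcripts and are not independent, so these counts describe 9 genes on 4 arrays.

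**Figure D1:**
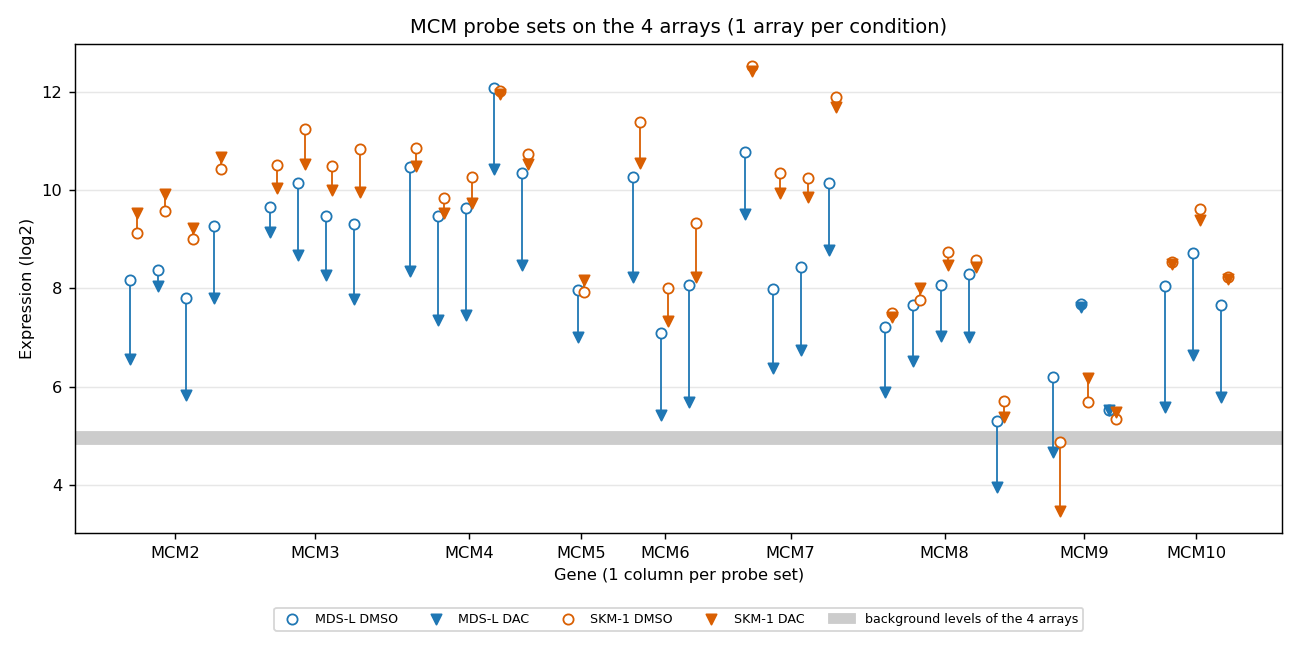
Expression (log2) of the 32 MCM probe sets on the 4 arrays, 1 column per probe set, grouped by gene. Open circles are DMSO, filled triangles DAC, blue MDS-L, orange SKM-1, lines join the arrays of a cell line, and the grey band spans the background levels (4.84 to 5.09). The MDS-L DAC triangle is the lowest point for 29 probe sets, all but those of MCM9.

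The subunits MCM4, MCM6 and MCM7, which form the part of the ring that can unwind DNA by itself in vitro, were 2.39-fold to 5.19-fold lower in MDS-L on all 12 of their probe sets. MCM6 was represented by 11732997_a_at, which read 10.27 with DMSO and 8.23 with DAC in MDS-L, and 11.38 and 10.54 in SKM-1. The decrease was thus 4.12-fold in MDS-L, against 1.79-fold in SKM-1. A further MCM6 probe set, 11751822_a_at, went from 8.07 to 5.69 in MDS-L, 5.19-fold lower, whereas SKM-1 showed 9.34 and 8.24, a 2.14-fold decrease. It was the only MCM probe set at least 2-fold lower in both cell lines, 1 of 31 where the share over all probe sets was 0.378%. The remaining MCM6 probe set, 11732998_at, was 3.19-fold and 1.59-fold lower.

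For MCM4, the 5 probe sets were 3.15-fold to 4.48-fold lower in MDS-L, whereas the decreases in SKM-1 ran from 1.05-fold to 1.44-fold. The probe set with the highest mean, 11759509_s_at, read 12.08 with DMSO and 10.42 with DAC in MDS-L, and 12.02 and 11.94 in SKM-1. With DMSO the cell lines thus had like levels on it, and only the MDS-L DAC array stood apart. The largest MCM4 decrease was on 11743693_a_at, which went from 9.63 to 7.47 in MDS-L, while SKM-1 gave 10.26 and 9.74. MCM7 probe sets were 2.39-fold to 3.18-fold lower in MDS-L, with decreases of 1.07-fold to 1.31-fold in SKM-1. The main one, 11729603_a_at, went from 10.78 to 9.52 in MDS-L, while SKM-1 gave 12.52 and 12.42. Both SKM-1 arrays lay above both MDS-L arrays for all 4 MCM7 probe sets.

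MCM2 and MCM5, which flank the gate through which the ring opens onto DNA, had lower values with DAC in MDS-L, whereas their values in SKM-1 were slightly higher, by less than 2-fold. MCM2, whose protein also binds histones, read 9.26 with DMSO and 7.80 with DAC in MDS-L on 11756666_x_at, and 10.43 and 10.67 in SKM-1. This is a 2.75-fold decrease in MDS-L with a 1.18-fold increase in SKM-1. All 4 MCM2 probe sets had these opposite directions, with increases of 1.18-fold to 1.33-fold in SKM-1. In MDS-L they disagreed in size. The probe sets 11746594_a_at, 11715991_a_at and 11756666_x_at were 3.93-fold, 3.04-fold and 2.75-fold lower, whereas 11715992_s_at went only from 8.37 to 8.06, or 1.24-fold lower. MCM5 has a single probe set, which read 7.97 and 7.02 in MDS-L and 7.93 and 8.17 in SKM-1. It was 1.93-fold lower in MDS-L, just under the 2-fold threshold, and 1.18-fold higher in SKM-1.

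MCM3, which pairs with MCM5 in the ring, was lower in both cell lines on all 4 probe sets. Its main probe set, 11742997_x_at, read 10.14 with DMSO and 8.68 with DAC in MDS-L, and 11.24 and 10.52 in SKM-1, or 2.75-fold and 1.65-fold lower. The probe set 11749478_a_at was 2.86-fold and 1.83-fold lower and 11748174_x_at 2.31-fold and 1.40-fold. The exception in MDS-L was 11742996_a_at, which went from 9.66 to 9.15 there, 1.42-fold lower, and was at 10.51 and 10.04 in SKM-1, 1.39-fold lower. It was the MCM2 to MCM7 probe set whose changes in the cell lines were closest, with a difference of -0.04 between the log2 fold changes.

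MCM8 was lower in MDS-L like the replicative subunits. Its main probe set, 11739931_x_at, read 8.30 with DMSO and 7.02 with DAC in MDS-L, and 8.58 and 8.44 in SKM-1. That is a 2.44-fold decrease in MDS-L, against 1.11-fold in SKM-1. The probe sets 11734971_s_at, 11734972_x_at and 11739930_a_at were 2.50-fold, 2.21-fold and 2.05-fold lower in MDS-L, and the second of them was 1.18-fold higher in SKM-1. The dim 11753133_x_at went from 5.30 to 3.97, under background, in MDS-L, at least 1.16-fold lower.

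MCM9, the partner of MCM8, did not share this pattern. Its main probe set, 11760239_at, read 7.68 with DMSO and 7.62 with DAC in MDS-L, and 5.70 and 6.17 in SKM-1. MDS-L was 1.04-fold lower with DAC, SKM-1 was 1.39-fold higher, and both MDS-L arrays lay above both SKM-1 arrays. The probe set 11760240_at read 5.54 and 5.53 in MDS-L and 5.35 and 5.49 in SKM-1, close to background throughout. The third, 11732654_at, had a larger decrease in MDS-L, from 6.19 to 4.68, which is under background and at least 2.15-fold lower, and lay under background on both SKM-1 arrays, at 4.88 and 3.48. The MCM9 probe sets thus disagreed on the size of the change in MDS-L.

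MCM10 had the largest decrease of a single MCM probe set in MDS-L and little change in SKM-1. The probe set 11736366_x_at went from 8.04 to 5.58 in MDS-L, 5.50-fold lower and rank 14 from the most lowered of 29223 measured probe sets, and from 8.53 to 8.50 in SKM-1. The main probe set, 11736367_a_at, read 8.73 and 6.65 in MDS-L and 9.62 and 9.38 in SKM-1, or 4.22-fold and 1.18-fold lower. The last, 11736368_a_at, went from 7.66 to 5.80 in MDS-L, 3.64-fold lower, and SKM-1 was 1.02-fold lower. All 3 MCM10 probe sets had their lowest value on the MDS-L DAC array.

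Different probe sets of a gene gave a measure of how closely the changes can be read, without the spread between cultures. The pooled standard deviation of the log2 fold change between probe sets of 1 MCM gene, over 8 genes, was 0.44 in MDS-L, where SKM-1 had 0.18. Over all genes with several probe sets it was 0.27 (7609 genes) and 0.28 (7642 genes). Decreases of the MCM2 to MCM4, MCM6 to MCM8 and MCM10 main probe sets in MDS-L, from -1.26 to -2.08, exceeded this spread, and those in SKM-1 exceeded it only for MCM3 (-0.72) and MCM6 (-0.84) on the scale of all genes. Increases of the MCM2 and MCM5 main probe sets in SKM-1, 0.24 each, were under the 0.28 of all genes, and that of MCM9 (0.47) was above it. MCM5, with -0.95 in MDS-L, has no second probe set to compare. Of the 32 probe sets, 10 carry the suffix x and 3 the suffix s, which the manufacturer gives to probe sets that may also match other sequences.

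Across the 31 probe sets measured in both cell lines, the change with DAC was lower in MDS-L than in SKM-1 for 30, where this held for 52.2% of all probe sets. Both lines were below 0 for 23, against 35.2%. The other 8, namely 4 of MCM2, 1 of MCM5, 1 of MCM8 and 2 of MCM9, combined a decrease in MDS-L with an increase in SKM-1, against 18.5%. All 31 were below 0 in MDS-L, so these joint shares do not show that opposite directions were more common among them. Of all probe sets below 0 in MDS-L, 9573 were below 0 in SKM-1 as well and 5029 were above 0 there. For the main probe sets, the change in MDS-L minus that in SKM-1 was -1.84 for MCM10, -1.70 for MCM2, -1.58 for MCM4, -1.20 for MCM6, -1.19 for MCM5, -1.16 for MCM7, -1.14 for MCM8, -0.74 for MCM3 and -0.53 for MCM9. This difference between the cell lines takes up all 4 arrays and could not be tested.

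**Figure D2:**
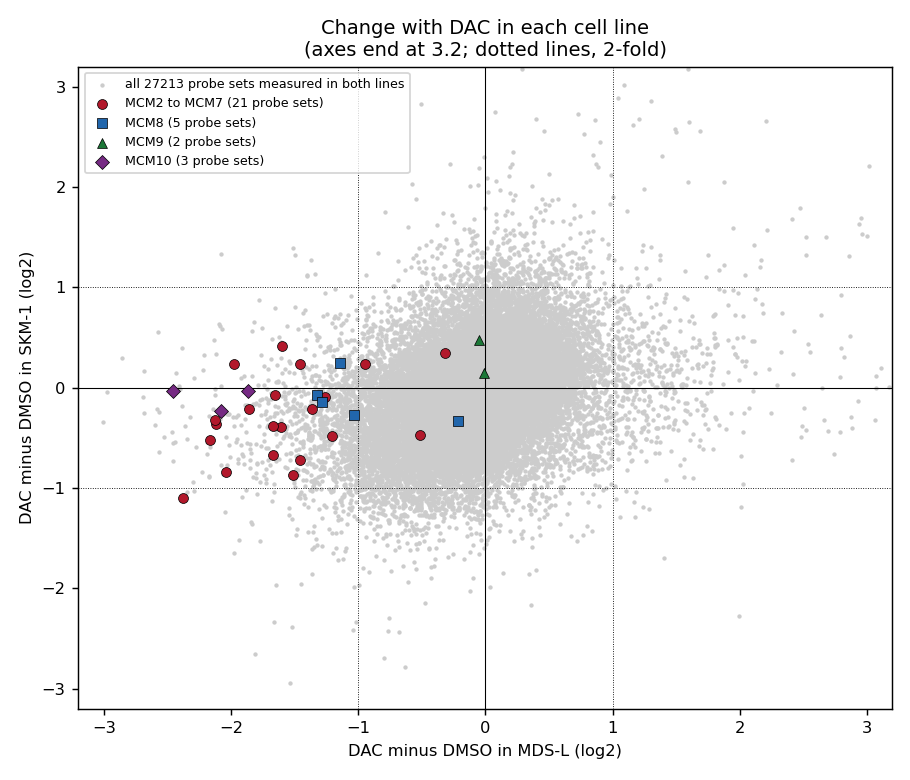
Change with DAC (DAC minus DMSO, log2) in MDS-L (horizontal axis) and SKM-1 (vertical axis) for 27213 probe sets measured in both lines (grey) and 31 MCM probe sets (colored by group). The replicative subunits, MCM8 and MCM10 lie to the left, mostly past the 2-fold line of MDS-L and within the 2-fold lines of SKM-1. The MCM9 probe sets drawn lie near 0 in MDS-L. MCM9 11732654_at, at least 2.15-fold lower in MDS-L, is not drawn, as it was under background on both SKM-1 arrays.

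A DAC effect shared by the cell lines was tested with limma, in which the lines are the only replication and 1 residual degree of freedom is left. Of the 31 MCM probe sets, 0 passed at an adjusted p under 0.05, where 0% of all 27213 probe sets passed, and at 0.15 the count was also 0. At an unadjusted p under 0.05 the counts were 14 of 31 and 15.1% of all. MCM6 11751822_a_at had the largest common effect, -1.74 (log2, standard error 0.35, adjusted p = 0.254 by limma). MCM3 11749478_a_at had -1.19 (standard error 0.26, adjusted p = 0.254), whereas MCM10 11736366_x_at, with a larger change in MDS-L and almost none in SKM-1, had -1.24 (standard error 0.53, adjusted p = 0.339). In this model a change that differs between the lines enters the error.

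The cell lines differed in their MCM levels with DMSO alone. With DMSO, 27 of 32 probe sets were lower in MDS-L than in SKM-1, against 50.5% of all, 12 were at least 2-fold lower, against 11.1%, and 2, both of MCM9, were at least 2-fold higher, against 11.5%. The median difference was -0.76 (log2). MCM7 differed most, 3.33-fold to 5.08-fold lower in MDS-L on its 4 probe sets, and MCM3, MCM6 and MCM2 were 1.81-fold to 2.91-fold lower. MCM4 ran from 1.55-fold lower to 1.04-fold higher, MCM8 was 1.07-fold to 1.60-fold lower and MCM10 1.40-fold to 1.85-fold lower, while MCM5 was 1.03-fold higher. MCM9 11760239_at was 3.93-fold higher in MDS-L, and the other MCM9 probe set counted as higher, 11732654_at, read 6.19 in MDS-L and lay under background in SKM-1. These DMSO arrays are also the base of the changes with DAC, so the values are not independent of them.

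MCM7 11752905_a_at was 11.8-fold lower in MDS-L than in SKM-1 with DAC and 5.08-fold lower with DMSO, and MCM2 11746594_a_at was 10.6-fold and 2.28-fold lower. The order SKM-1 above MDS-L on both arrays of each held for 27 of 31 probe sets, against 30.4% of all, and the reverse for the 2 of MCM9, against 30.5%. The MDS-L DAC array was the lowest for 29 of 31, against 30.1%. In limma's fit of both treatments together, 20 of 31 MCM probe sets differed between the cell lines at an adjusted p under 0.05, where 30.2% of all did. The largest was MCM7 11752905_a_at, -2.95 in MDS-L against SKM-1 (log2, standard error 0.34, adjusted p = 0.0025), and MCM9 11760239_at had 1.71 (standard error 0.24, adjusted p = 0.0047). All MCM2, MCM3, MCM6 and MCM7 probe sets passed, and MCM5 did not (-0.55, standard error 0.34, adjusted p = 0.264). The cell line effect in this fit is the mean of the DMSO and DAC differences, so a change with DAC that differs between the lines enters it. MCM10 11736367_a_at, for example, differed by -0.89 with DMSO and -2.73 with DAC, and had -1.81 in the fit. These limma p-values rest on 1 residual degree of freedom and on variance pooled over all probe sets. The DMSO and DAC arrays of a line stand in for its replicates, so the p-values do not measure the spread between cultures.

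**Figure D3:**
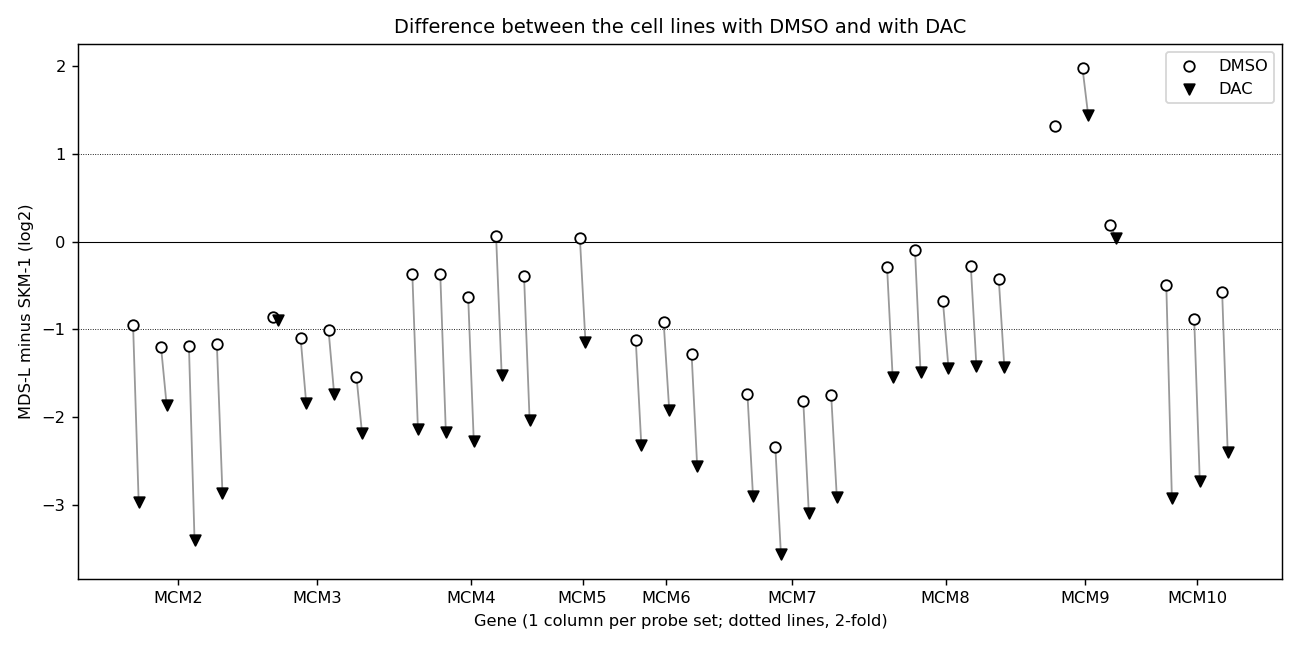
Difference between the cell lines (MDS-L minus SKM-1, log2, values as deposited) for each MCM probe set with DMSO (open circles) and with DAC (filled triangles). Most points lie below 0 and lower with DAC than with DMSO, MCM9 lies above 0, and no DAC point is drawn for the MCM9 probe set that was under background on both DAC arrays.

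Genes that load the ring or control its loading, activate it or accompany it were taken from lists chosen by function. Each gene is given by its main probe set. Of 9 genes of loading and its control, 6 were lower by at least 2-fold in MDS-L, against 3.18% of all genes, with a median of -1.41 (log2) against 0.04 for all genes. The 6 include GMNN, which is not a loading factor but the inhibitor of CDT1, and which was 2.66-fold lower. In SKM-1 there were 0, against 1.43%, with a median of 0.04 against 0.05. CDT1, which brings the ring to the origin, read 8.58 with DMSO and 6.51 with DAC in MDS-L, 4.19-fold lower, and 8.88 and 9.46 in SKM-1. CDC6, its partner in loading, was 3.18-fold lower in MDS-L, against 1.32-fold in SKM-1, and ORC1, a subunit of the origin recognition complex, 2.92-fold and 1.03-fold lower. The genes of this list did not all go with them, as ORC4 read 10.19 and 10.18 in MDS-L and 9.85 and 10.16 in SKM-1. ORC2 had the largest decrease of this list in SKM-1, from 7.85 to 7.42, and read 8.15 and 7.09 in MDS-L.

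Of 16 genes that activate the ring, 10 were lower by at least 2-fold in MDS-L, against 3.18% of all genes, and all were below 0, against 46.3%, with a median of -1.28. In SKM-1, 0 were 2-fold lower, against 1.43%, with a median of -0.18. GINS2 and GINS1, subunits of the GINS complex, were 5.09-fold and 4.90-fold lower in MDS-L. CDC45, the other partner of the ring in the active helicase, went from 9.09 to 6.96 in MDS-L, 4.40-fold lower, and was 1.16-fold lower in SKM-1. In SKM-1 the largest decreases were those of TOPBP1 and MTBP, which help to recruit CDC45 and GINS, at 1.83-fold and 1.76-fold, and the largest increases those of the helicase RECQL4, at 1.72-fold, and of DBF4B, an activator of the kinase CDC7 that phosphorylates the ring, at 1.28-fold.

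Of 11 measured genes of proteins that bind the ring or travel with it, 5 were lower by at least 2-fold in MDS-L, against 3.18% of all genes, with a median of -0.79. In SKM-1 there were 0, against 1.43%, with a median of 0.06. WDHD1, which links the helicase to DNA polymerase alpha, was 3.47-fold and 1.69-fold lower. TIPIN and TIMELESS, which form the fork protection complex, were 2.62-fold and 2.59-fold lower in MDS-L, with 1.54-fold and 1.06-fold increases in SKM-1. In SKM-1, CLSPN, an adaptor of the replication checkpoint, was 1.11-fold lower, and TONSL, which binds new histones, was 1.40-fold higher. MCMBP, which binds MCM proteins outside the ring, and MCM3AP, whose product associates with MCM3, were the only genes of this list above 0 in MDS-L. MCMBP read 10.63 and 10.73 in MDS-L and 10.62 and 10.51 in SKM-1, and MCM3AP 10.09 and 10.30 in MDS-L and 9.08 and 9.30 in SKM-1. MCMDC2, an MCM-related gene, was under background on all 4 arrays.

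General markers of proliferation were lower in the same cells as the MCM genes. In MDS-L, all 10 genes of the proliferation list were at least 2-fold lower, against 3.18% of all genes, with a median of -1.31. In SKM-1 there were 0, against 1.43%, with a median of 0.00. RRM2 and TYMS, which make DNA precursors, were 7.25-fold and 5.39-fold lower in MDS-L, and the cyclin CCNA2 was 3.35-fold lower. In SKM-1, TOP2A was 1.60-fold and FEN1 1.25-fold lower, E2F1 was 1.49-fold higher and RRM2 1.23-fold higher. With DMSO, 10 of 10 were also lower in MDS-L than in SKM-1, against 51% of all genes. The part of the proliferation state in the MCM values was not tested.

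**Figure D4:**
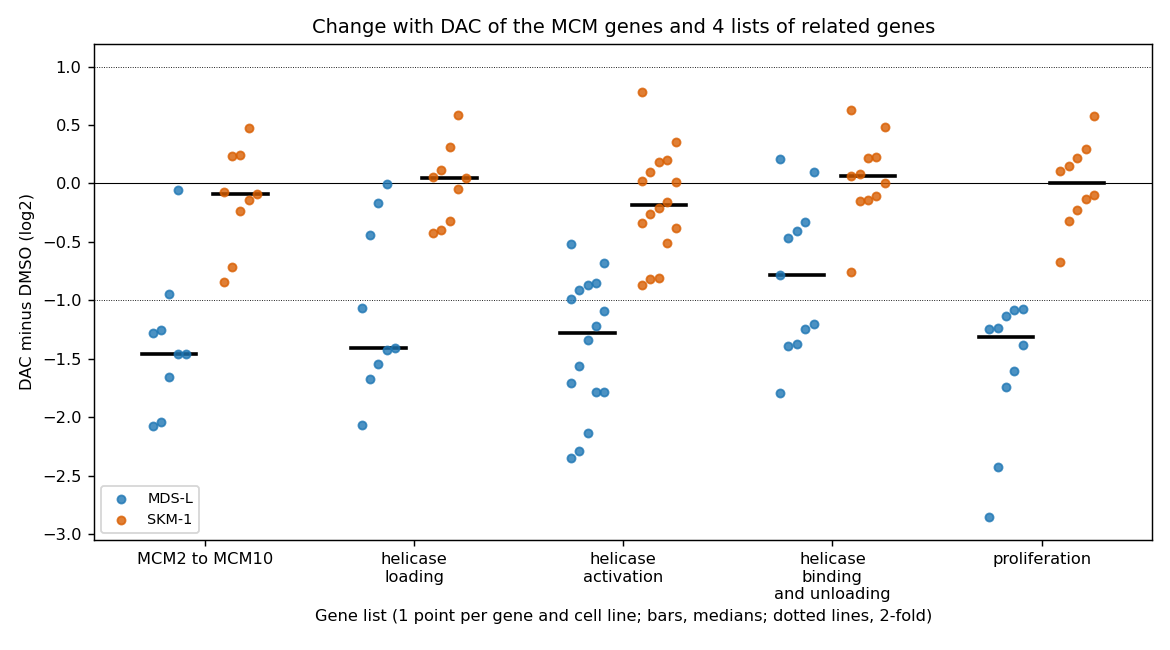
Change with DAC (DAC minus DMSO, log2) of the 9 MCM genes and of 4 lists of related genes, 1 point per gene by its main probe set, blue for MDS-L and orange for SKM-1, with bars at the medians. In MDS-L the medians lie between -1.46 and -0.79, and in SKM-1 between -0.18 and 0.06.

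Among 11238 other genes above background on all 4 arrays, the pattern over the 4 arrays nearest to the mean of MCM2 to MCM7 was that of COQ3, a methyltransferase of coenzyme Q synthesis. Its Euclidean distance, over levels centred on each gene's own mean, was 0.08 (log2), and KIF11 followed at 0.10, SAMD13 at 0.12, KIF2C at 0.13 and DUT at 0.14. KIF11 and KIF2C are kinesins of the mitotic spindle, and DUT removes dUTP. COQ3 was at 8.30 and 6.88 in MDS-L and at 9.09 and 8.89 in SKM-1. Distances of the MCM genes themselves from that mean ran from 0.36 for MCM3 to 1.04 for MCM5 among the subunits that form it. They were 0.55 for MCM10, 0.63 for MCM8 and 3.37 for MCM9. The genes above were picked as the closest of 11238 and the MCM genes were not, so these distances cannot be compared with theirs. Nearest to MCM8 were FAM136A (0.05) and MMS22L (0.10), a partner of TONSL in recombination. Nearest to MCM10 were the Polycomb histone methyltransferase EZH2 (0.22) and CDCA5 (0.22), which holds sister chromatids together, and nearest to MCM9 were LRRC41 (0.08) and GPX4 (0.10), which reduces lipid peroxides. The distances cover only 4 arrays and are a description.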

How the data were processed

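RNA of the 4 cultures was hybridised to 1 array each. The authors deposited 1 log2 expression value per probe set and array for 49395 probe sets. The study's methods name RMA normalization in Partek Genomics Suite and RNeasy extraction, whereas the submitters' processing notes name MAS5 and the labels Trizol. The values were used without a further transformation. RMA makes the distributions of the arrays alike, so a change shared by most genes would not be seen.

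Probe sets with several gene symbols (1832) or none (2569) were left out. A probe set was measured in a cell line when it was above background on at least 1 of its 2 arrays. Each gene's main probe set is the one with the highest mean over the 4 arrays. Precision is limited by the 4 arrays and by signal over background.

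The common effects were fitted in limma 3.58.1 (R 4.3.3) over 27213 probe sets measured in both lines, with cell line and treatment as terms, a trend on mean expression, two-sided tests and p-values adjusted by Benjamini-Hochberg over all of them. Other steps used Python 3.11.15, numpy 2.4.6, pandas 2.3.3 and matplotlib 3.10.9. The fold counts and the fit were tested on simulated data.

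The members, the gene lists and the rules were chosen with earlier results of these data known. All 9 MCM genes are reported with every probe set. From each list of related genes, named are up to 3 of the largest decreases and 2 increases in MDS-L and 2 of each in SKM-1, and the nearest patterns are the 5 closest to the MCM2 to MCM7 mean and 2 for each other gene. GMNN is named in addition, for its role. Alternatives were other fold thresholds and background levels, quantile normalization, centring, other ways to combine probe sets and other limma settings.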

Additional observations from a re-analysis of the deposited data

Results flagged for a closer look

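For MCM2, MCM5 and MCM9, every probe set measured in both cell lines had a log2 fold change below 0 in MDS-L and above 0 in SKM-1 after DAC. Of these values, only 3 MCM2 probe sets in MDS-L passed the 2-fold threshold. Since every MCM probe set was below 0 in MDS-L, the opposite directions rest on the sign in SKM-1 alone. MCM5 in MDS-L was at 1.93-fold, the SKM-1 values reached at most 1.39-fold, and the MCM9 probe sets were at -0.05 and -0.01 (log2) in MDS-L. The SKM-1 increases of the MCM2 and MCM5 main probe sets, 0.24 (log2) each, were under the spread between probe sets of a gene over all genes, 0.28. The change in MDS-L minus that in SKM-1 was -1.70 (log2) for MCM2, -1.19 for MCM5 and -0.53 for MCM9, by the probe set with the highest mean. This difference was not tested, since 1 array per condition leaves no error for it. For MCM2 and MCM5 the opposite directions held as well with no background level, with the 99th percentile as background, after quantile normalization and with centred changes. For MCM9 they did not. After quantile normalization its changes in MDS-L ran from -1.13 to 0.07, centred changes reached 0.02, and with no background level the MCM9 probe set under background in SKM-1 had -1.39 there.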

How the results depend on the processing

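The MDS-L count of 26 of 32 MCM probe sets at least 2-fold lower was 15 at 3-fold, and 7 of 9 with 1 probe set per gene or with the median over the probe sets of a gene, which count genes. It was 27 at 1.5-fold and with no background level, 20 of 29 with the 99th percentile as background, 25 after quantile normalization and 26 with centred changes. The SKM-1 count of 1 was 5 at 1.5-fold, 2 with no background level, 0 at 3-fold, 0 after quantile normalization and 0 with both ways of counting genes. Over the alternatives, the MDS-L median ran from -1.52 to -1.26, and that of SKM-1 from -0.22 to -0.09. With DMSO, 12 probe sets lower and 2 higher in MDS-L became 4 and 1 at 3-fold. For these fold counts, shares over all probe sets were computed only at 2-fold with the main settings, so the alternative counts have none beside them. The limma count for DAC stayed at 0 under the other settings tried, with a lowest adjusted p for the MCM probe sets from 0.282 to 1.00 (14, 0, 15 and 13 at an unadjusted p under 0.05 without the trend, without the cell line term, with no filter and after quantile normalization). The cell line count of 20 was 19 or 20 under alternatives added after seeing the data. Of the single genes' changes, 1 of 36 in MDS-L turned its sign, MCM9 after quantile normalization, and 0 of 36 in SKM-1. No replicate could be left out, as each condition has 1 array, and the limma test of DAC already pairs the arrays by cell line.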
